A study of Mus musculus with 6 samples.

Results

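The genes described here are 46 factors that build ribosomes in the nucleolus, together with subunits of RNA polymerase I (Pol I). They were taken by name from a prepared list, and each was found by its row name in the deposited count table, so that 46 of the 45527 named genes are covered. All 46 passed the filter on low counts and were tested. They fall into 7 core proteins of small nucleolar ribonucleoprotein particles (snoRNPs), 13 factors of the small ribosomal subunit, 14 factors of the large subunit, 5 genes of Pol I and its initiation factor, and 7 multifunctional nucleolar factors. Their mRNA was sequenced in satellite cells, the stem cells of skeletal muscle. Cells were sorted from lower hindlimb muscles of mice 24 h after an injection of 30 µl of cardiotoxin, a venom toxin that destroys muscle fibres. The 3 libraries labelled Paxbp1-iKO came from Pax7creER mice with both Paxbp1 alleles floxed, and the 3 control libraries from Pax7creER mice with a single floxed Paxbp1 allele. Both groups also carried R26R-YFP, whose fluorescent protein is switched on by Cre and was used for sorting. CreER is a Cre recombinase that works after tamoxifen, and recombination is limited to cells in which the Pax7 promoter is active. The sources used here do not give the share of cells that lost the floxed part. The labels do not say whether each library came from a single mouse, and the p-values speak of the spread among libraries alone, which may be technical.

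Ribosome production starts with transcription of a long ribosomal RNA precursor by Pol I in the nucleolus. Box C/D snoRNPs methylate the precursor and box H/ACA snoRNPs convert uridines in it to pseudouridine, while separate sets of factors cut, fold and assemble the small and large subunits. Many of these genes are textbook targets of the transcription factor Myc, and their output rises when quiescent cells prepare to divide.

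Total counts per library lay between 23327359 and 28050748. Paxbp1, the targeted gene, went against the knockout label, with 96.2, 108 and 127 CPM in the iKO-labelled libraries, against 70.8, 74.1 and 61.0 CPM in the controls (log2 fold change 0.68 ± 0.13, adjusted p = 0.00954). Counts cover the whole gene, and the sources used here do not name the floxed exons, so this value does not show whether the floxed part was deleted. For this reason the libraries are named by label, and each higher or lower below means by label. Values of single libraries are listed in the order of replicates 1, 2 and 3. All 10 satellite cell markers passed the filter; 6 were called higher and 3 (Myf5, Itga7 and Des) lower in the iKO-labelled libraries. Pax7, among the higher ones, stood at 49.9, 47.6 and 50.9 CPM in the iKO-labelled libraries, against 13.8, 9.7 and 10.6 CPM in the controls. Of the other cell types, summed markers of fibro-adipogenic cells were the highest. They ran from 1451 to 1714 CPM in the iKO-labelled libraries and from 1406 to 1940 CPM in the controls, with 0 of 8 called. Summed markers of endothelial cells ran from 132 to 152 CPM in the iKO-labelled libraries and from 75.5 to 278 CPM in the controls. Those of macrophages ran from 109 to 206 CPM in the iKO-labelled libraries and from 122 to 195 CPM in the controls. Those of muscle fibres ran from 17.9 to 29.3 CPM in the iKO-labelled libraries and from 28.9 to 76.5 CPM in the controls, with 1 of 7 tested called lower. Summed markers of pericytes and smooth muscle did not overlap, at 196 to 298 CPM in the iKO-labelled libraries and 320.1 to 418 CPM in the controls; 1 of 6, Acta2, was called lower. The 10 satellite cell markers summed to between 12194 and 12768 CPM in the iKO-labelled libraries and between 9661 and 10155 CPM in the controls. The part of other cell types in the results was not tested. In sorted bulk cells, fewer cells that use a gene and less RNA per cell cannot be told apart. CPM, read counts relative to library sizes scaled by TMM (the trimmed mean of M values), say nothing of the total RNA in a cell.

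Most ribosome biogenesis genes differed little between the groups, and those that changed went both ways. Of the 46 genes, 9 were lower in the iKO-labelled libraries (Npm1, Bop1, Heatr1, Tcof1, Lyar, Rcl1, Dkc1, Ncl and Ddx21) and 5 were higher (Ppan, Gnl3, Nop16, Polr1c and Utp4). The remaining 32 did not pass the test, which was edgeR's quasi-likelihood test at a Benjamini-Hochberg adjusted p under 0.05 over 16252 genes. The 14 called genes are 30.4% of the members, where 20.4% of all tested genes were called (8.15% higher and 12.3% lower). Ribosome biogenesis genes are abundant, and abundant genes are called more often: of the 4970 tested genes whose mean log2 CPM reached that of the lowest member, 37.7% were called (11.9% higher and 25.9% lower). The members' share is below that value. Of the 46 members, 39 had a log2 fold change smaller than 0.5 in size. This held for 8668 of the 16252 tested genes, less abundant ones included. The members' median was -0.027, against 0.023 over all tested genes and -0.10 over the 4970 abundant ones. Between replicates the coefficient of variation of a member's CPM had a median of 5.92% in the iKO-labelled libraries and 6.39% in the controls. In 31 of the 46 members the CPM ranges of the groups stayed apart. Among all tested genes, less abundant ones included, this held for 39.8%. The share among the abundant genes alone was not computed, so no excess of the members is read from these values.

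**Figure D1:**
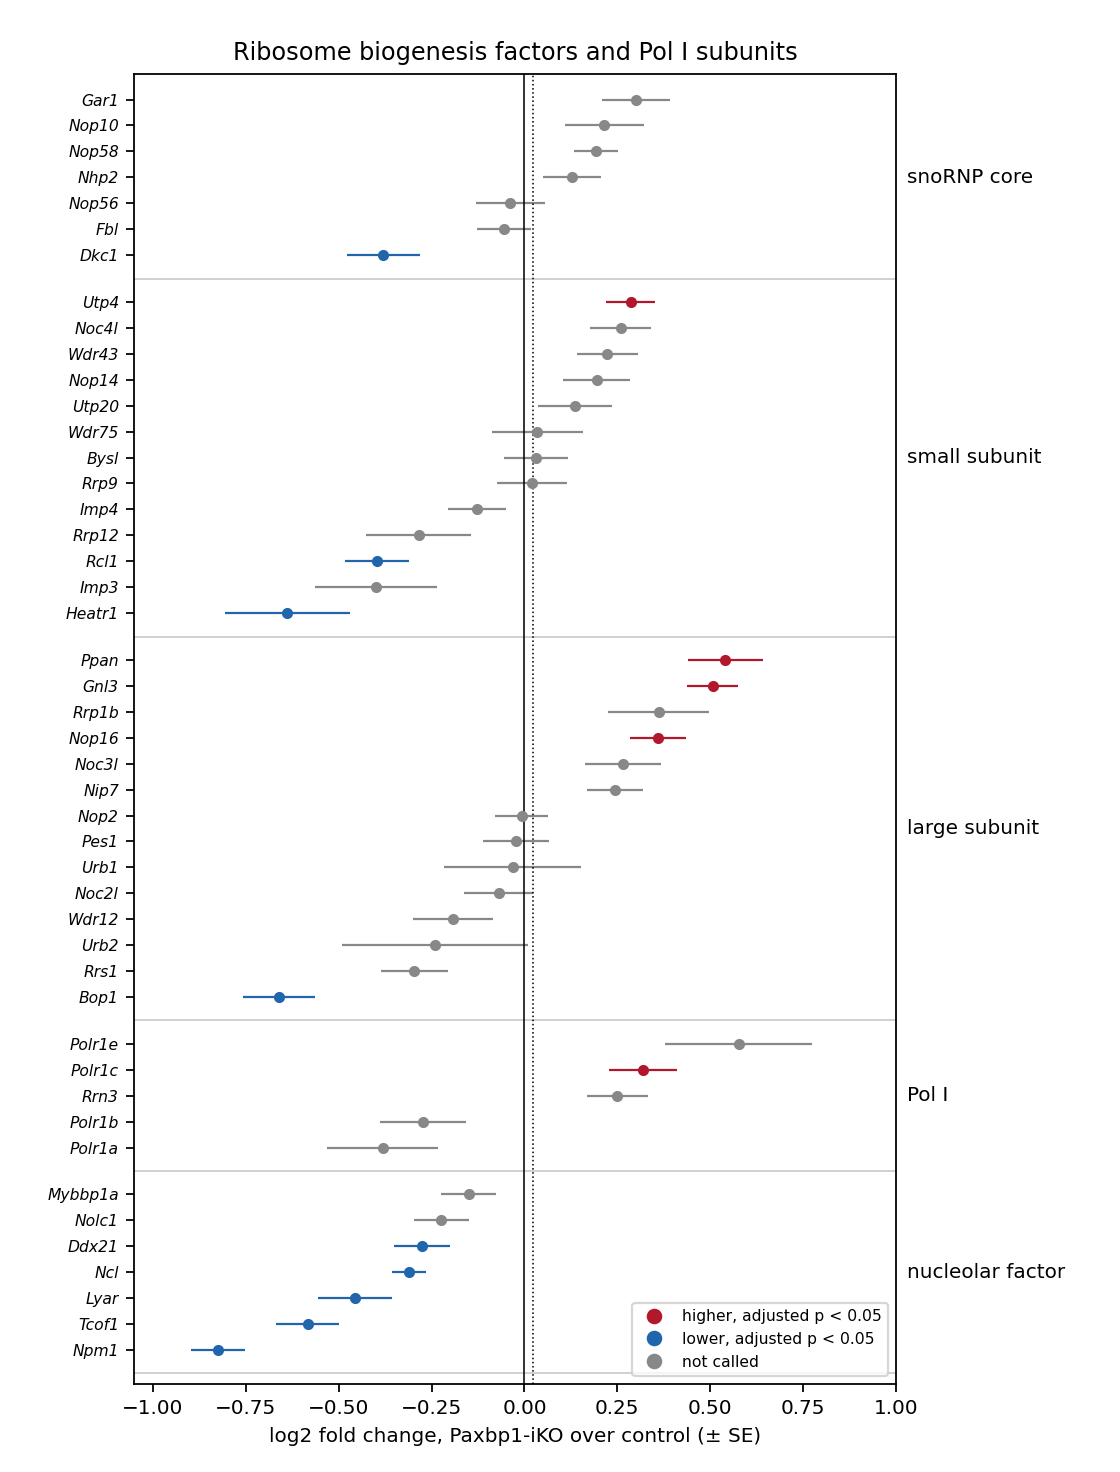
Log2 fold change (x axis, Paxbp1-iKO over control, ± SE) of each of the 46 genes, sorted within their 5 groups; red points are higher and blue points lower at an adjusted p under 0.05, grey points were not called, and the dotted line marks the median of all tested genes. All 7 nucleolar factors lie left of 0, and each of the other groups has genes on both sides.

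How many genes count as higher depends on the scaling of the libraries. With library totals in place of TMM factors, 17 members were called higher and 4 lower, with upper-quartile factors 12 and 6, and with RLE factors 10 and 9. DESeq2 gave 13 and 10, and a stricter filter, 5 CPM or more in 3 libraries, gave 14 and 8. Library totals moved the median of all tested genes by 0.13 on the log2 scale, and the members' median stayed 0.05 below that of all tested genes (0.11 against 0.16). The order of these medians turned with the stricter filter (0.043 for the members against 0.011 for all tested genes), and narrowly with GC and length trends removed and with both filtered FPKM settings. The members' median turned positive with upper-quartile factors (0.052), library totals, the stricter filter (0.043) and GC and length trends removed (0.017). Without control 3 and without iKO 2, 8 members were called, and without iKO 3, 7. Called under every alternative that tested them were 6 members (Ncl and Npm1 in 18 of 19, since 1 alternative removes the most abundant genes), namely Npm1, Ncl, Tcof1 and Bop1 (lower) and Gnl3 and Ppan (higher).

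Upstream sequences were available for 40 of the 46 genes, as the 250 bases before the transcription start in RefSeq (GRCm38.p6). Bop1, Fbl, Npm1, Rrp12, Rrs1 and Tcof1 were not among them. Both strands were searched for 5 motifs, and matches to different motifs may share bases and were counted separately. Bases after the start and further upstream were not searched, so a missing match does not show that a gene lacks the site. CACGTG, the E-box form that Myc binds best, was present in 3 of the 40 (7.5%; Imp4, Nop2 and Rrn3), against 9.59% of 10684 tested genes in the same table, and in none of the 5 genes called higher or of the 6 called lower that have a sequence. CCGGAAG, a core of ETS factor sites, was present in 9 (22.5%, against 14.6%). GGGCGG, the GC box, was present in 26 (65%, against 62.7%), CCAAT in 11 (27.5%, against 39.7%) and TCTCGCGA in 2 (5%, against 1.98%). The sequences below are shown because Ppan rose, Dkc1 fell, and Rrn3 and Nop2 hold the E-box; they run 5′ to 3′ in the direction of transcription, with matches to any of the 5 motifs in capitals.
Ppan chr9:20887925-20888174 (plus strand): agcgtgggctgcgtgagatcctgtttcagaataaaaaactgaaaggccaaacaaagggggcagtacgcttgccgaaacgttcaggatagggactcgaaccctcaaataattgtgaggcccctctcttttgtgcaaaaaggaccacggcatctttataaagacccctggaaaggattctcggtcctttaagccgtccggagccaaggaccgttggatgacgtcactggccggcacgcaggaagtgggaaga
Dkc1 chrX:75095604-75095853 (plus strand): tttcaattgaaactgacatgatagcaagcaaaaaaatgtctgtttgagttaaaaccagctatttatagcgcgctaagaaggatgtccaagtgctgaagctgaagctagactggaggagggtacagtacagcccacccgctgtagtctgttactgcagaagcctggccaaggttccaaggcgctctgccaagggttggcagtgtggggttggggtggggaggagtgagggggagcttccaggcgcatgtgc
Rrn3 chr16:13780449-13780698 (plus strand): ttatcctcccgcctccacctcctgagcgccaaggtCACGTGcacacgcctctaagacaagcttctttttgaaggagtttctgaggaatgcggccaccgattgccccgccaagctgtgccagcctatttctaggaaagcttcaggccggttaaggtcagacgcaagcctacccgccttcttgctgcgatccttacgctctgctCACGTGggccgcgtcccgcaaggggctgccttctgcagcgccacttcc
Nop2 chr6:125131633-125131882 (plus strand): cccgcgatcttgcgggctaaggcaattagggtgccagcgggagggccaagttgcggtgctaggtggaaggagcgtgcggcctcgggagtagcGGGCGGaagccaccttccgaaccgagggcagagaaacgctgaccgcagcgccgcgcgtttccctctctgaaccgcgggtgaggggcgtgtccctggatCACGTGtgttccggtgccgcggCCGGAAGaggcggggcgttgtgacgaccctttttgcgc
Rrn3 has CACGTG at 2 places, beginning 215 and 48 bases before the start, and Nop2 has it once, beginning 60 bases before the start and followed by CCGGAAG. The windows of Ppan and Dkc1 hold none of the 5 motifs, which does not hold for all called genes. The GC box was present in 4 of the 5 genes called higher and 2 of the 6 called lower. CCGGAAG was present in 2 of the 5 and 1 of the 6, and CCAAT in 0 of the 5 and 1 of the 6. These numbers are too small to compare. Myc itself stood at 895, 1149 and 1149.6 CPM in the iKO-labelled libraries, against 1813, 1661 and 1685 CPM in the controls (log2 fold change -0.69 ± 0.10, adjusted p = 0.00277), below every control in each iKO-labelled library. Mki67, the marker of cycling cells, was added after its values were seen and stood at 1.75, 1.02 and 1.18 CPM in the iKO-labelled libraries, against 37.2, 44.7 and 32.6 CPM in the controls. The part of Myc or of cell cycling in the values of the ribosome biogenesis genes was not tested.

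In the group of nucleolar factors every called gene was lower in the iKO-labelled libraries. Of its 7 genes 5 fell and none rose, where 25.9% of the abundant genes were lower, and the median log2 fold change was -0.31. The gene lists, this group included, were drawn up with earlier results of these data known. The shared direction is therefore a description and not a test of the group. None of the 7 changed sign under any alternative. Nucleophosmin, encoded by Npm1, is a histone chaperone that shapes the nucleolus and escorts ribosomal particles out of the nucleus. Npm1 had 1451, 1306 and 1215 CPM in the iKO-labelled libraries, against 2274, 2369.8 and 2390.0 CPM in the controls. All iKO-labelled libraries lay far below all controls (log2 fold change -0.82 ± 0.072, adjusted p = 0.000327), and per gene length Npm1 was the most abundant of the 46 genes in the deposited FPKM, with 490.3 ± 44.7 FPKM in the iKO-labelled libraries and 859 ± 31.5 FPKM in the controls (SD, n = 3 each). Nucleolin, encoded by Ncl, binds nascent ribosomal RNA and had 2516, 2539 and 2500.2 CPM in the iKO-labelled libraries, against 3204, 3046 and 3124 CPM in the controls. The iKO-labelled libraries were almost alike, with an SD of 0.766% of their mean, and lay below the lowest control (log2 fold change -0.31 ± 0.046, adjusted p = 0.00286). Treacle, encoded by Tcof1 and mutated in Treacher Collins syndrome, links Pol I with ribosomal RNA processing. Tcof1 had 168, 171 and 158 CPM in the iKO-labelled libraries, against 236, 237 and 271 CPM in the controls, again without overlap (log2 fold change -0.58 ± 0.085, adjusted p = 0.00272). Lyar, a nucleolar zinc finger protein, had 191, 185 and 215 CPM in the iKO-labelled libraries, against 243, 272 and 297 CPM in the controls. For Lyar the log2 fold change was -0.46 ± 0.10 (adjusted p = 0.0151). Ddx21, an RNA helicase that acts on both Pol I and Pol II transcripts, had 475, 551 and 485 CPM in the iKO-labelled libraries, against 626, 588 and 616 CPM in the controls. For Ddx21 the log2 fold change was -0.28 ± 0.076 (adjusted p = 0.0361). Lyar lost its call when control 2, control 3, iKO 1 or iKO 2 was removed (highest adjusted p = 0.0664), with library totals and with a limma fit to log2(FPKM + 1) with no filter (unfiltered FPKM). Ddx21 lost it when any library but iKO 2 was removed (highest adjusted p = 0.118). It also lost it with library totals, upper-quartile factors, no count filter, the stricter filter, unfiltered FPKM and replicate number as a block, and was called in 8 of 19 alternatives.

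The 2 nucleolar factors that did not pass were Nolc1, a chaperone of snoRNPs that shuttles between the nucleolus and Cajal bodies (-0.22 ± 0.073, adjusted p = 0.068), and Mybbp1a, a Myb-binding nucleolar protein (-0.15 ± 0.074, adjusted p = 0.204). The summed level of the 7 genes was 6061, 5920.2 and 5684 CPM in the iKO-labelled libraries, against 7964, 7826 and 8015 CPM in the controls, so that the mean fell by 25.8%, and with library totals the log2 ratio was -0.30 in place of -0.43. Ncl and Npm1 made up most of this sum. Without them the other 5 genes summed to 2093, 2076 and 1969 CPM in the iKO-labelled libraries, against 2487, 2410.3 and 2501 CPM in the controls, and the groups still did not overlap. The level of the 44 members other than Ncl and Npm1 was 12215, 12021 and 12132 CPM in the iKO-labelled libraries, against 12605, 11958 and 11989.7 CPM in the controls, where the groups overlapped.

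**Figure D2:**
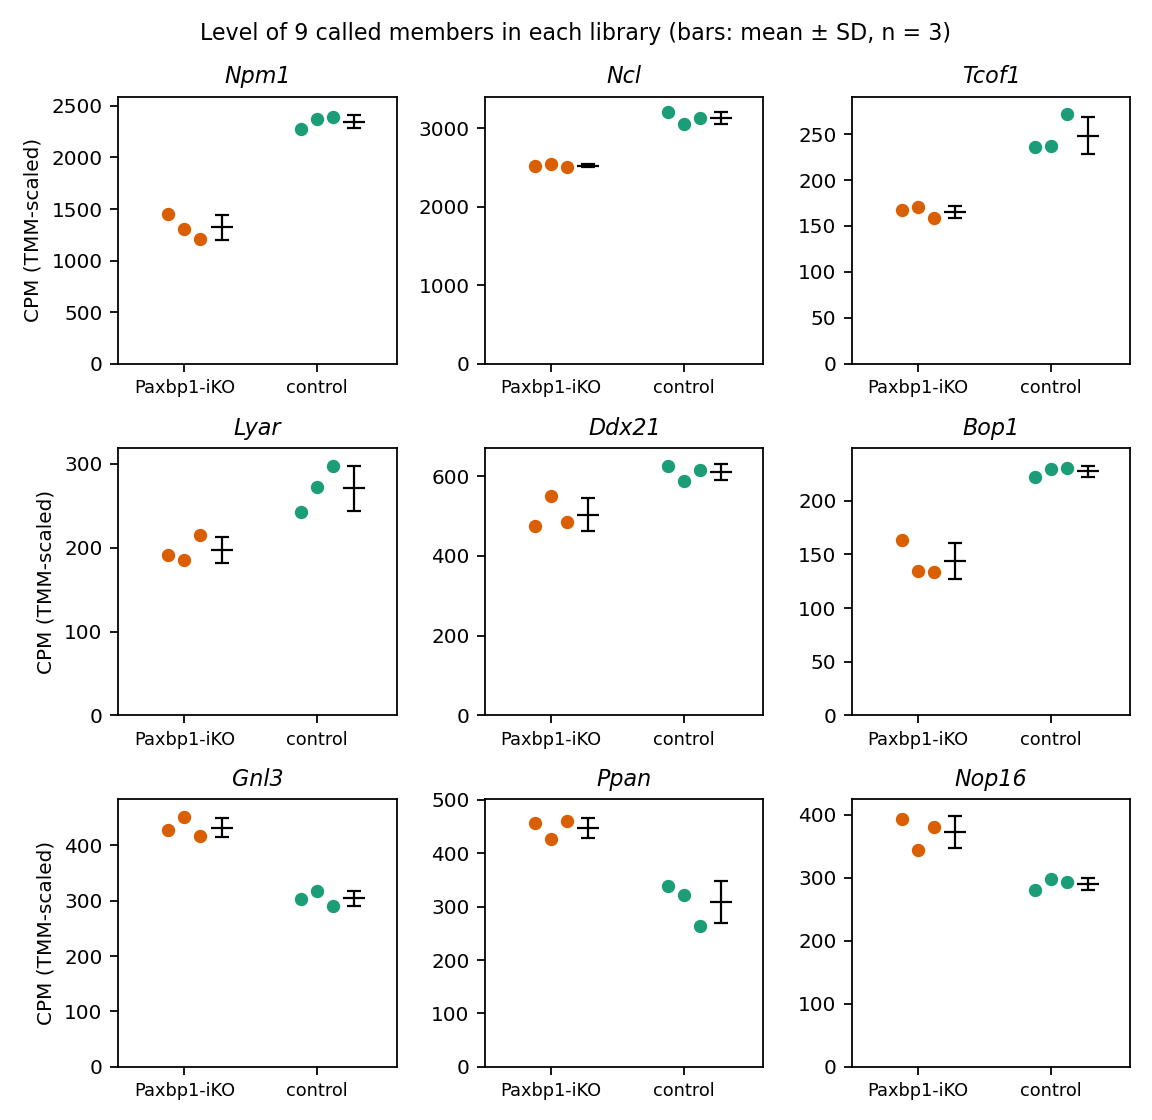
CPM (y axis, from 0) of 9 called genes in each library, as points, with mean ± SD (n = 3) as black marks, Paxbp1-iKO left and control right. In each panel the groups do not overlap: Npm1, Ncl, Tcof1, Lyar, Ddx21 and Bop1 are lower and Gnl3, Ppan and Nop16 higher in the iKO-labelled libraries.

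Genes of the large subunit went both ways, with 3 of 14 higher, 1 lower and a median log2 fold change of -0.015. Called genes were 28.6% of this group, where 20.4% of all tested genes and 37.7% of the abundant ones were called. Nucleostemin, a nucleolar GTPase encoded by Gnl3 and named for its abundance in stem cells, had 428, 452 and 417 CPM in the iKO-labelled libraries, against 304, 318 and 291 CPM in the controls. Each iKO-labelled library lay above each control (log2 fold change 0.51 ± 0.07, adjusted p = 0.00215). Ppan, the mammalian form of the fly growth gene peter pan, is a factor of large subunit maturation and had 457, 426 and 461 CPM in the iKO-labelled libraries, against 339, 322 and 263 CPM in the controls. The groups did not overlap (log2 fold change 0.54 ± 0.10, adjusted p = 0.00797), and control 3 was the lowest library. Nop16, a nucleolar protein of the large subunit pathway, had 393, 344 and 380.3 CPM in the iKO-labelled libraries, against 279.7, 298 and 292 CPM in the controls (log2 fold change 0.36 ± 0.076, adjusted p = 0.0132), a call that ended without iKO 3 (adjusted p = 0.0518) and with the replicate block. Bop1 went the other way, with 163, 134 and 134 CPM in the iKO-labelled libraries, against 222, 229 and 231 CPM in the controls (log2 fold change -0.66 ± 0.10, adjusted p = 0.00279). Bop1 works in a stable trimer with Pes1 and Wdr12, the PeBoW complex, which is needed to process the large subunit's RNA. The partners did not follow it past the test: Pes1 had 381, 322 and 309 CPM in the iKO-labelled libraries, against 344, 338 and 347 CPM in the controls (-0.02 ± 0.09, adjusted p = 0.894), with overlapping groups, and Wdr12 had 114, 119 and 121 CPM in the iKO-labelled libraries, against 155, 123 and 126 CPM in the controls. For Wdr12 the log2 fold change was -0.19 ± 0.11 (adjusted p = 0.271). The difference between Bop1 and its partners was not tested.

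The large subunit gene with the highest FPKM (per gene length, mean of 6 libraries 197) was Rrs1, an assembly factor. It had 334, 393 and 379 CPM in the iKO-labelled libraries, against 483, 415 and 459.7 CPM in the controls, which misses the threshold (-0.30 ± 0.089, adjusted p = 0.0512) although the groups did not overlap. It was called without control 2 (adjusted p = 0.0492) and with DESeq2 and limma-voom, and not called with library totals (adjusted p = 0.266). Nip7, a factor of pre-ribosome assembly, was also close to the threshold (0.24 ± 0.075, adjusted p = 0.054). Rrp1b (0.36 ± 0.14, adjusted p = 0.104) and Noc3l (0.27 ± 0.10, adjusted p = 0.112), nucleolar proteins of the large subunit pathway, had every iKO-labelled library above every control without passing the test. Nop2, a methyltransferase of large subunit RNA, stood at 416, 406 and 435 CPM in the iKO-labelled libraries, against 440.2, 394 and 430.3 CPM in the controls. For Nop2 the log2 fold change was -0.01 ± 0.071 (adjusted p = 0.954). Noc2l (-0.07 ± 0.093, adjusted p = 0.664), Urb1 (-0.03 ± 0.19, adjusted p = 0.929) and Urb2 (-0.24 ± 0.25, adjusted p = 0.571) had overlapping groups, and Urb2 had the widest spread among the iKO-labelled libraries of all 46 genes (33.7% of its mean). Summed over the 14 genes, the level was 3351, 3285 and 3323 CPM in the iKO-labelled libraries, against 3204, 2979.7 and 3074 CPM in the controls.

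Of 13 genes of the small subunit, 2 fell and 1 rose, with a median of 0.030. This is a called share of 23.1%, against 20.4% of all tested genes and 37.7% of the abundant ones. Most encode parts of the processome, the large particle that assembles on the nascent precursor and releases the small subunit's RNA. Utp4, a processome protein also known as cirhin, had 369, 375 and 388 CPM in the iKO-labelled libraries, against 321, 311 and 297 CPM in the controls. No control reached the lowest iKO-labelled library (log2 fold change 0.29 ± 0.066, adjusted p = 0.0191). Heatr1, which is needed for both Pol I transcription and processing, had 162, 153 and 161 CPM in the iKO-labelled libraries, against 302, 180.4 and 259.7 CPM in the controls. The controls were spread widely and the iKO-labelled libraries closely below them (log2 fold change -0.64 ± 0.17, adjusted p = 0.0317). Rcl1, which in yeast takes part in a cleavage of the precursor, had 219, 199.7 and 186 CPM in the iKO-labelled libraries, against 281, 251 and 264 CPM in the controls. For Rcl1 the log2 fold change was -0.40 ± 0.087 (adjusted p = 0.0152). Utp4 lost its call when control 2, control 3, iKO 2 or iKO 3 was removed (highest adjusted p = 0.0684), and with the replicate block. Heatr1 lost it when any library but control 2 was removed (highest adjusted p = 0.106), and Rcl1 when iKO 2 or iKO 3 was removed (highest adjusted p = 0.0623). Heatr1 and Rcl1 also lost it with library totals, and Heatr1 with upper-quartile factors and unfiltered FPKM.

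The other 10 small subunit genes did not pass. Wdr43, a processome protein with the highest FPKM of the group (mean of 6 libraries 156), had 532, 609 and 628 CPM in the iKO-labelled libraries, against 526, 512 and 478 CPM in the controls. For Wdr43 the log2 fold change was 0.22 ± 0.081 (adjusted p = 0.0954). Noc4l (0.26 ± 0.082, adjusted p = 0.0613) and its partner in yeast, Nop14 (0.19 ± 0.091, adjusted p = 0.185), had non-overlapping groups, higher in the iKO-labelled libraries. Imp3 (-0.40 ± 0.16, adjusted p = 0.132) and Imp4 (-0.13 ± 0.078, adjusted p = 0.311) bind each other in the processome. Imp3 had 57.3, 63.6 and 48.8 CPM in the iKO-labelled libraries, against 77.2, 60.3 and 86.4 CPM in the controls, with overlapping groups. Rrp12, an export factor of the small subunit, was at -0.29 ± 0.14 (adjusted p = 0.208) and Utp20, a large processome scaffold, at 0.14 ± 0.10 (adjusted p = 0.4). Wdr75, Rrp9 and Bysl had log2 fold changes of 0.035, 0.021 and 0.030. The sign turned without control 3 or iKO 2 for Wdr75, without control 2 or iKO 3 for Rrp9, and without control 1 or iKO 3 for Bysl. Summed over the 13 genes, the level was 2939.9, 2977 and 3113 CPM in the iKO-labelled libraries, against 3245, 2879.8 and 2920.2 CPM in the controls, with overlapping groups.

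In the snoRNP core 1 of 7 genes (14.3%) was called, against 20.4% of all tested genes and 37.7% of the abundant ones. The median log2 fold change was 0.13. The called gene was Dkc1, which encodes dyskerin, the pseudouridine synthase of box H/ACA particles that also binds telomerase RNA. Dkc1 had 279, 249 and 222 CPM in the iKO-labelled libraries, against 343, 303 and 329.8 CPM in the controls. All iKO-labelled libraries were below all controls (log2 fold change -0.38 ± 0.10, adjusted p = 0.0306). The call was lost when control 1, control 3, iKO 2 or iKO 3 was removed (highest adjusted p = 0.0988), with library totals (adjusted p = 0.103), with upper-quartile factors, with unfiltered FPKM and with the replicate block. Its 3 partners in the same particle had higher values in the iKO-labelled libraries, none past the test. Gar1 had 168, 167 and 183 CPM in the iKO-labelled libraries, against 127, 143 and 150.0 CPM in the controls. For Gar1 the log2 fold change was 0.30 ± 0.092 (adjusted p = 0.0547). Nhp2, the snoRNP gene with the highest FPKM (mean of 6 libraries 321), had 416, 376 and 381 CPM in the iKO-labelled libraries, against 331, 375 and 367 CPM in the controls. For Nhp2 the log2 fold change was 0.13 ± 0.078 (adjusted p = 0.315). Nop10, the smallest partner, had 132, 113 and 108 CPM in the iKO-labelled libraries, against 96.6, 101 and 106 CPM in the controls. For Nop10 the log2 fold change was 0.22 ± 0.11 (adjusted p = 0.208). The groups did not overlap for any of the 4 H/ACA genes, where this held for 31 of the 46 members and 39.8% of all tested genes. The last share includes less abundant genes, and none was computed for the abundant ones alone. For Nhp2 the separation was slight, from 375.57 CPM in iKO 2 to 375.06 CPM in control 2. The difference between Dkc1 and its partners was not tested.

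The 3 box C/D genes did not pass. Fibrillarin, the methyltransferase encoded by Fbl, had 309.7, 311 and 292 CPM in the iKO-labelled libraries, against 322, 296 and 329.6 CPM in the controls (-0.05 ± 0.073, adjusted p = 0.667), and the scaffold gene Nop56 had 844, 843 and 907 CPM in the iKO-labelled libraries, against 889, 998 and 777 CPM in the controls. For Nop56 the log2 fold change was -0.04 ± 0.093 (adjusted p = 0.826). In both the groups overlapped, and the sign of both turned with library totals, upper-quartile factors and the stricter filter. Nop58, the other scaffold, was close to the threshold with 856, 870.3 and 902 CPM in the iKO-labelled libraries, against 800.2, 745 and 755 CPM in the controls (0.19 ± 0.059, adjusted p = 0.0543), and it was called higher by DESeq2, limma-voom, the stricter filter and each of the 3 other scalings. Summed over the 7 snoRNP genes, the level was 3006, 2928 and 2994 CPM in the iKO-labelled libraries, against 2909.8, 2962 and 2815 CPM in the controls.

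**Figure D3:**
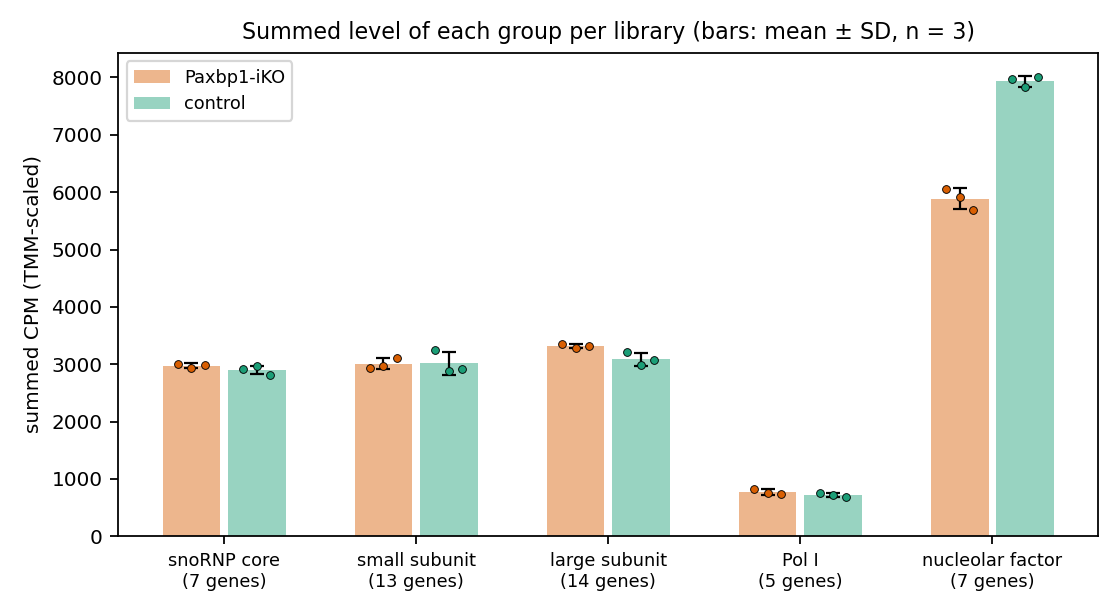
Summed CPM (y axis, from 0) of each of the 5 groups in each library, as points, with bars for the mean and error bars for the SD (n = 3), Paxbp1-iKO left of control. The nucleolar factors are lower in all iKO-labelled libraries, from 5684 to 6061 against 7826 to 8015 in the controls, and the means of the other 4 groups differ by at most 7.56%. On the same scale the sum over all 16252 tested genes has a log2 ratio of -0.13 (Paxbp1-iKO over control).

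Of the 5 genes of Pol I, 1 rose and none fell, with a median of 0.25. Calls covered 20.4% of all tested genes and 37.7% of the abundant ones, and 1 of 5 exceeds neither share. Polr1c, a subunit that Pol I shares with Pol III, had 156, 152 and 164 CPM in the iKO-labelled libraries, against 115, 134 and 130.5 CPM in the controls. For Polr1c the log2 fold change was 0.32 ± 0.091 (adjusted p = 0.0432). Removing any library took its adjusted p past the threshold, to at most 0.132. The call was also lost with no count filter, with unfiltered FPKM and with the replicate block, and held in 10 of 19 alternatives. Rrn3, the initiation factor that makes Pol I competent to start and the gene of the group with the highest FPKM (mean of 6 libraries 76.9), had 329, 286 and 304 CPM in the iKO-labelled libraries, against 273, 253 and 246 CPM in the controls. The groups did not overlap and the test was not passed (0.25 ± 0.081, adjusted p = 0.0663). Polr1e, a subunit that helps Pol I engage its promoter, had 90.7, 80.4 and 68.0 CPM in the iKO-labelled libraries, against 54.3, 66.4 and 39.7 CPM in the controls. For Polr1e the log2 fold change was 0.58 ± 0.20 (adjusted p = 0.079). The catalytic subunits had lower values: Polr1a, the largest, was at 119, 97.6 and 90.5 CPM in the iKO-labelled libraries, against 158, 127 and 116 CPM in the controls (-0.38 ± 0.15, adjusted p = 0.115), and Polr1b, the second largest, at 130.5, 139 and 105 CPM in the iKO-labelled libraries, against 159, 146 and 148 CPM in the controls. For Polr1b the log2 fold change was -0.27 ± 0.12 (adjusted p = 0.144). Neither passed the test, and the iKO-labelled and control values of Polr1a overlapped. Summed over the 5 genes, the level was 825, 755 and 733 CPM in the iKO-labelled libraries, against 759, 726 and 679.7 CPM in the controls.

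A wider list of 141 ribosome biogenesis genes that are not among the 46 was also called in both directions. Of these, 28 fell and 15 rose. The called share was 30.5%, against 20.4% of all tested genes and 37.7% of the abundant ones, and the median log2 fold change was -0.051. The abundant genes were set by the lowest of the 46 members, and some genes of the wider list lie below that level. Taf1b, for example, had a mean of 15.7 CPM in the iKO-labelled libraries and 16.6 CPM in the controls. The balance of directions rests on the scaling: with library totals 29 genes of the wider list were called higher and 9 lower, with upper-quartile factors 22 and 21, and with the stricter filter 25 and 25. Without control 3 it was 10 and 9. The falls with the smallest p were those of Ruvbl2 (log2 fold change -0.76 ± 0.078, adjusted p = 0.000577), an ATPase of the complex that assembles snoRNPs, Rrp1 (log2 fold change -0.56 ± 0.075, adjusted p = 0.00191), a large subunit factor related to Rrp1b, and Eif6 (log2 fold change -0.52 ± 0.079, adjusted p = 0.00316), which keeps the new large subunit from joining the small one too early. The rises with the smallest p were those of the processome protein Pwp2 (log2 fold change 0.47 ± 0.069, adjusted p = 0.00289), Taf1a, a subunit of the Pol I selectivity factor (log2 fold change 0.77 ± 0.13, adjusted p = 0.00634), and C1d, a cofactor of the nuclear exosome (log2 fold change 0.65 ± 0.12, adjusted p = 0.00762). By subset, 4 of 10 snoRNP assembly genes fell and 1 rose, and 12 of 49 further small subunit genes fell and 6 rose. Likewise 10 of 53 further large subunit genes fell and 4 rose, 1 of 15 further Pol I genes fell and 3 rose, and of 14 exosome genes 1 fell and 1 rose. In place of 43 genes of this list, 25 were called without control 1, 19 without control 3, 19 without iKO 2 and 22 without iKO 3.

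Per gene length, the 46 genes ranged from 5.85 FPKM for Urb2 to 675 FPKM for Npm1 in the mean of the 6 libraries, with a median of 76.0 FPKM. Reads of some members can be shared with other genes. Noc2l overlaps exons of Samd11 on the opposite strand over 20.9% of its exon length, Urb2 an antisense gene over 9.5%, Bysl Ccnd3 over 9.4%, and Nop56 Idh3b and small nucleolar RNA genes over 8.1%. Processed pseudogenes at least 95% identical over 200 bases or more held counts equal to 1.59% to 1.86% of those of Npm1 and 1.18% to 1.35% of those of Nop56 in a library. For Pes1 and Wdr12 they reached at most 0.413% and 1.09%. These shares cover only processed pseudogenes with a row of counts, and some of those of Npm1, Nop56 and Pes1 have none. Other genes matched as well, such as Tulp4 over 690 bases of Fbl and Tmod3 over 206 bases of Wdr12. Reads shared with them were not measured.

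**Figure D4:**
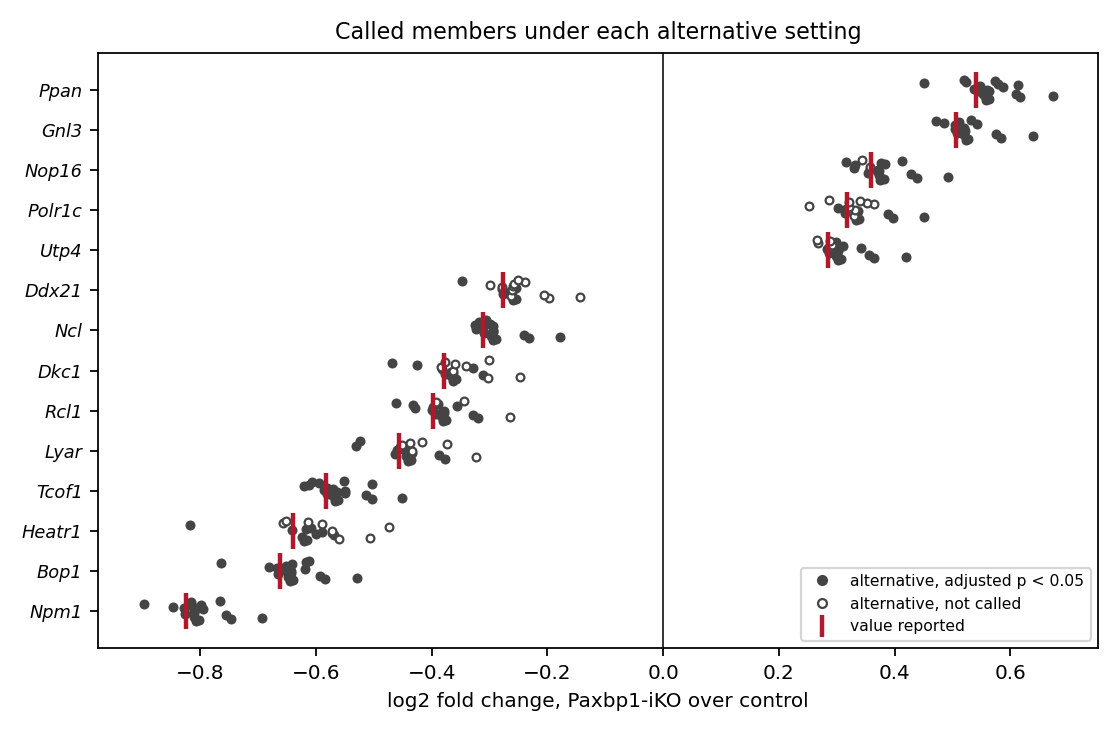
Log2 fold change (x axis, Paxbp1-iKO over control) of the 14 called genes as reported (red marks) and under each alternative (filled circles called, open circles not called at an adjusted p under 0.05). No called gene changes sign, and Npm1, Bop1, Tcof1, Ncl, Gnl3 and Ppan have filled circles only.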

How the data were processed

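The RNA of sorted satellite cells was amplified by Smart-Seq2, which primes at the poly(A) tail and keeps no strand, per the labels' protocols. Tools named in the submitters' processing notes, without versions or order, are STAR, featureCounts (Subread), Trim Galore and DESeq2, with the build mm10. The authors deposited raw counts per gene and FPKM for the same 46078 rows; the deposited FPKM carry median-of-ratios scaling between libraries (tested on 11966 genes). The 551 rows without a gene name held 0.108% to 0.123% of a library's counts and were left out. The sources used here do not say how reads with several matches were handled.

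The counts went through edgeR 4.0.16 in R 4.3.3: filterByExpr (minimum count 10, minimum total 15), TMM factors and a quasi-likelihood test with group as the only term, with Benjamini-Hochberg adjustment over all 16252 tested genes. An SE is the log2 fold change divided by the square root of F. Positions and exon lengths came from GENCODE M21 (GRCm38). The fit was tested on simulated data with planted changes. It recovered 11 of 67 changes of 1.5-fold, 36 of 67 of 2-fold and 50 of 66 of 4-fold. Of its 102 calls, 5 were false. The planted genes were drawn from all genes that passed the filter, so these values do not give the recovery for genes as abundant as the members. The members, gene lists and alternatives were chosen with earlier results of these data known. The abundance-limited background and Mki67 were added later. Given in full were, per group, the 3 smallest adjusted p, the largest called rise and fall and the highest FPKM; of the wider list, the 3 smallest adjusted p in each direction. Further values of members were chosen to cover all 46. Alternatives used DESeq2 1.42.0, limma 3.58.1, other factors and filters, log2(FPKM + 1) and log2(FPKM + 0.1), GC and length trends, a replicate block and each library left out. The study describes 3 pairs of mice, and the labels do not say whether a shared replicate number marks a pair. Same-numbered libraries did not deviate together (correlations -0.067, -0.0021 and -0.059), and the fit reported has no block. These correlations speak of the shared numbers alone and do not show that the mice were unpaired. Which libraries form a pair remains unknown here. Replicates were not duplicates of one another (chi-square over degrees of freedom 21.2 to 31.9).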

Additional observations from a re-analysis of the deposited data

How the results depend on the processing

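The 14 called members kept their sign in each alternative that tested them (19, or 18 for Ncl and Npm1), and 6 of them kept their call in each. Of the 32 others, 14 were called under some alternative and 10 changed sign. The cause of these changes was not tested. Members called numbered 14 as reported, 23 with DESeq2, 22 with the 5 CPM filter, 9 with unfiltered FPKM and 7 to 12 with a library left out. Higher members numbered 5 as reported, 13 with DESeq2, 10 with RLE factors, 12 with upper-quartile factors, 17 with library totals, 14 with the 5 CPM filter, 8 with limma-voom, 10 with either FPKM pseudocount, 8 with GC and length trends removed and 2 to 5 with a library left out. Lower members numbered 9 as reported, 4 with library totals, 5 with unfiltered FPKM and 5 to 8 with a library left out. Of all tested genes, 3315 were called (2053 to 2816 with a library left out), 1324 of them higher (2100 with DESeq2, 706 to 1159 with a library left out). With library totals 57.2% of the called genes were higher, against 39.9% as reported.

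In the snoRNP core 1 gene was called, 3 with DESeq2, RLE factors, the 5 CPM filter or limma-voom, 2 with upper-quartile factors or filtered FPKM, 4 with library totals, 0 with unfiltered FPKM and 0 to 1 with a library left out. In the small subunit group 3 were called, 5 with DESeq2 or the 5 CPM filter and 0 to 3 with a library left out. In the large subunit group 4 were called, and 7 with DESeq2, library totals or the 5 CPM filter. In the Pol I group 1 was called, 3 with DESeq2, library totals, the 5 CPM filter or filtered FPKM, 2 with RLE or upper-quartile factors, no filter or GC and length trends removed, 0 with unfiltered FPKM and 0 to 1 with a library left out. Of the nucleolar factors 5 were called, 3 with library totals, unfiltered FPKM or the 50 most abundant genes removed (Ncl and Npm1 are among these) and 3 to 4 with a library left out. The wider list had 43 calls (15 higher and 28 lower), and 19 to 30 with a library left out; library totals turned the directions to 29 higher and 9 lower.

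The members' median log2 fold change was -0.027, 0.052 with upper-quartile factors, 0.11 with library totals and 0.043 with the 5 CPM filter. With library totals the log2 ratio of the summed CPM was 0.17 for the snoRNP core, 0.13 for the small subunit, 0.24 for the large subunit, 0.23 for Pol I and -0.30 for the nucleolar factors. With upper-quartile factors it was 0.12 for the snoRNP core, 0.18 for the large subunit and -0.35 for the nucleolar factors.

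Log2 fold changes near 0 changed sign. With upper-quartile factors, library totals and the 5 CPM filter, Fbl reached 0.024, 0.078 and 0.015, Nop56 0.039, 0.095 and 0.031, Nop2 0.071, 0.13 and 0.062, Pes1 0.054, 0.11 and 0.046, Noc2l 0.0095, 0.064 and 0.00018, and Urb1 0.050, 0.10 and 0.040. Imp4 reached 0.0047 with library totals. With GC and length trends removed Nop56 was 0.0098, Nop2 0.024 and Pes1 0.026. Nop2 was also 0.0088 with DESeq2, 0.014 with RLE factors, 0.0057 with no filter and 0.0092 with each FPKM setting. With a library left out, the range was -0.11 to 0.058 for Nop56, -0.046 to 0.17 for Wdr75, -0.044 to 0.12 for Rrp9, -0.018 to 0.068 for Bysl, -0.051 to 0.023 for Nop2, -0.12 to 0.036 for Pes1 and -0.20 to 0.085 for Urb1.

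With replicate number as a block, 9 members were called (2 higher and 7 lower), with 0 in the snoRNP core and 0 in the Pol I group. The wider list then had 22 calls, and 813 of all tested genes were called higher. Dkc1, Utp4, Nop16, Polr1c and Ddx21 lost their call. The study describes 3 pairs of mice, and the sources used here do not say which libraries form a pair, and no fit with another pairing was made. With 3 libraries a group, the absence of a call does not show equal levels.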
